A study of Mus musculus with 6 samples.

Results

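Among 7 cytokine genes that are classic targets of NF-κB, *Csf1* was the one whose signal lay above the median of the array in embryonic mammary buds, and after exposure to recombinant Eda protein it was higher in each of the 3 pairs of pools, by 0.62 on the log2 scale on average. Of all probe sets, 13.2% were higher in each pair. The group holds 4 interleukin genes of the inflammatory response, *Il1a* (probe set ENSMUSG00000027399_at), *Il1b* (ENSMUSG00000027398_at), *Il6* (ENSMUSG00000025746_at) and *Il33* (ENSMUSG00000024810_at). It also holds *Lif* (ENSMUSG00000034394_at), which belongs to the interleukin 6 family, and the colony-stimulating factor genes *Csf1* (ENSMUSG00000014599_at) and *Csf2* (ENSMUSG00000018916_at). The members were chosen by name from the list of NF-κB regulated cytokines, with earlier results of these data known. They were found by Ensembl identifier, and all 7 had a row among the 25949 probe sets.

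The mammary buds came from *Eda-/-* embryos of B6CBA background at E13.5, so that control and treated pools alike lacked the Eda ligand. Buds from one side of the embryos were kept without Eda (control), and those from the other side were exposed to Fc-Eda-A1, a recombinant form of the A1 isoform of Eda (Fc-Eda), and each incubation lasted 4 h. Each pool held about 20 buds of 5 to 6 embryos per the labels (for the arrays, the study's methods give a range of buds with this as its upper end), and each condition had 3 biological replicates from littermates of 3 litters. Expression was measured on 6 Affymetrix Mouse Exon 1.0 ST arrays, whose probes lie along the exons of mouse genes. Most of the mesenchyme had been removed by hand, and the RNA was extracted from the whole pool, so that fewer cells of a type and less RNA per cell cannot be told apart. The tissue was not checked against its marker genes, because no table used here pairs the Ensembl identifiers of the rows with gene names.

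Eda is a ligand of the tumor necrosis factor family that signals through the receptor Edar in the placodes and buds of skin appendages, and the signal releases NF-κB to enter the nucleus. In immune and stressed cells NF-κB switches on many cytokine genes, among them those of interleukin 1 and interleukin 6 and the growth factors of myeloid cells. Interleukin 1 signals back to NF-κB through its own receptor, which makes it a common amplifier of inflammation, whereas *Csf1* is also expressed outside inflammation and keeps tissue macrophages alive. The comparison asks which of these genes respond to a short Eda signal in the bud.

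The promoter sequences are shown first, since NF-κB is known to act by binding κB elements in the DNA. RefSeq windows (build GRCm38.p6) of 300 bases, of which 250 lie before the gene's start, were available for all 7 members and were searched on both strands for the κB consensus of NF-κB. A match was present in 3 of the 7 members, *Csf1*, *Il6* and *Lif*, and in 9.55% of the 27025 genes with a window. The match of *Csf1* reads GGGACTTTCC on the strand opposite to the gene, from 154 to 145 bases before the start. The match of *Il6* reads GGGATTTTCC, from 44 to 35 bases before the start. In *Lif* the match reads GGGACGCCCC, from 178 to 169 bases before the start, and the same bases fit on both strands. Sequence before the start is given 5′ to 3′ on the strand of the gene, with the match in capitals, all 250 bases for *Csf1* (chr3:107760470-107760719, minus strand) and 100 bases for *Il6* (chr5:30013014-30013113, plus strand) and *Lif* (chr11:4257345-4257444, plus strand).
Csf1: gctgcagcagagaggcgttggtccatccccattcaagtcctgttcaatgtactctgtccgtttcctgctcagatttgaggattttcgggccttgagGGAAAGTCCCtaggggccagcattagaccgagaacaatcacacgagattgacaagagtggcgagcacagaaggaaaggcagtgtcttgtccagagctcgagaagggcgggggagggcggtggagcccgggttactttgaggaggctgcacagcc
Il6: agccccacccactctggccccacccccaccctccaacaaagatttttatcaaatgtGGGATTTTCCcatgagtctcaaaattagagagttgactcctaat
Lif: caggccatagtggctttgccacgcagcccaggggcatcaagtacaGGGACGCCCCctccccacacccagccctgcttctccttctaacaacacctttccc

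The windows of *Il1a*, *Il1b*, *Il33* and *Csf2* held no match, which says only that these letters are absent from them. The letters TATAAA, the core of a TATA box, began 32 bases before the start in *Il1a*, 31 in *Il1b* and 29 in one of the 2 windows of *Il33*. They were present in 15.7% of the genes. The motif TGANTCA, to which AP-1 factors bind, lay in the windows of *Il1a*, *Il6* and *Lif* and in 8.97% of the genes. The window of *Csf1* therefore held the κB consensus without TATAAA or TGANTCA, and that of *Csf2* held none of the 3 motifs. *Il1a* and *Il1b* are neighbouring genes, *Lif* lies next to *Osm*, another member of the interleukin 6 family, and *Csf2* next to *Il3*.

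One array stood apart from the others. The 25th percentile over all probe sets was 3.74 on the log2 scale on the array of control 1 and between 3.45 and 3.56 on the other 5 arrays. The probe sets were divided by mean level into 10 groups of about 2595. In the group around a level of 3.53, where 4 of the 7 members lie, the median difference between Fc-Eda and control was -0.28 in pair 1 against 0.0065 and 0.022 in pairs 2 and 3. In the group around 6.37, which holds *Csf1*, it was 0.095 in pair 1 and -0.0017 and 0.0034 in the other pairs. Values of dim members in pair 1 are therefore given beside those of the other pairs.

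In control buds the 7 members fell into a well expressed gene and 6 dim ones. The mean level of *Csf1* on the 3 control arrays was 5.92 ± 0.14 (log2, SD, n = 3), which 67.8% of the probe sets did not exceed. *Il1b* followed with 3.73 ± 0.35, *Il33* with 3.64 ± 0.095, *Lif* with 3.51 ± 0.068 and *Il1a* with 3.36 ± 0.098. *Csf2* was at 2.90 ± 0.34 and *Il6* at 2.05 ± 0.11. On every array *Csf1* lay above all other members, and their values over all 6 arrays ranged from 1.92 to 4.06. Levels of different probe sets also depend on how well their probes bind, so that this order describes the signal and not the number of transcripts.

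No detection call comes with the values, and a member was called near the floor when its control mean was below the 25th percentile of all control means, 3.57. *Il6*, *Csf2*, *Il1a* and *Lif* were near the floor by this rule, at percentiles 3.30, 13.1, 20.9 and 23.8. *Il33* and *Il1b* lay just above it, at percentiles 26.4 and 28.0. With control 1 left out *Lif* was at percentile 25.1 and the count was 3 in place of 4, and with control 2 left out *Il33* was at percentile 24.5 and the count was 5. *Il6* was the dimmest member on every array, at or below percentile 5.30. In the order of the control levels, *Csf1* against *Il1b* and *Csf2* against *Il6* were neighbours whose control values did not overlap. The control values of *Il1b*, *Il33*, *Lif*, *Il1a* and *Csf2* overlapped from each to the next.

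**Figure D1:**
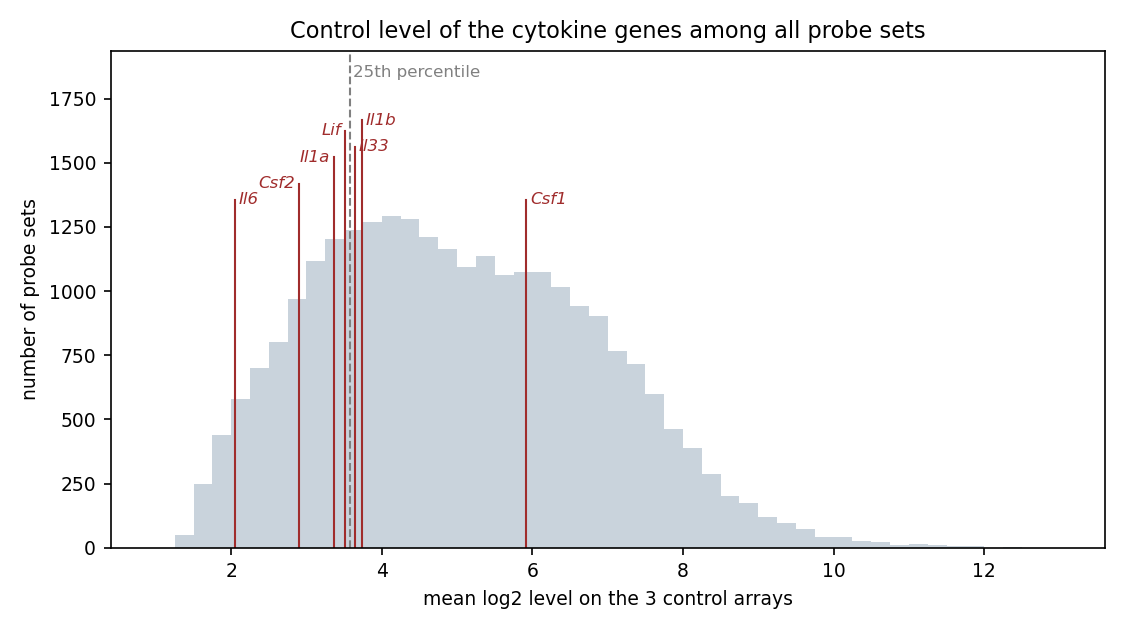
Number of probe sets by their mean log2 level on the 3 control arrays, in bins of 0.25, with the 7 cytokine genes as red lines and the 25th percentile (3.57) as a dashed line. *Csf1* stands alone at 5.92, and the other 6 genes lie between 2.05 and 3.73.

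*Csf1* encodes the growth factor through which macrophages and their precursors survive and mature. Its level was 5.88, 6.07 and 5.80 on the arrays of control 1, 2 and 3 and 6.43, 6.67 and 6.51 on those of Fc-Eda 1, 2 and 3. Each treated pool was thus above each control pool, as in 3.98% of all probe sets. The difference was 0.54 in pair 1, 0.60 in pair 2 and 0.71 in pair 3, which are close to one another for a probe set of this level. Their standard deviation was 0.084, and the median standard deviation in its level group was 0.119. The mean difference of 0.62 (log2, SE 0.084) is a fold of 1.53 with a 95% interval from 1.32 to 1.78.

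By size, *Csf1* ranked 108 of 25949 among the rises and 53 by its p-value in limma, whose smallest q was 0.10. Limma with the pairs as a block gave *Csf1* q = 0.252, and it called 0 of the 25949 probe sets (0%) at a q of 0.05, though at an unadjusted p below 0.05 it had 708 higher and 864 lower ones. *Csf1* was the 1 member past this threshold in the 2 other tests of the study's methods, which let the expected variance follow the level. IBMT gave it q = 0.0267 and called 88 probe sets higher (0.339%). After cyclic loess IBMT gave *Csf1* q = 0.0880 and did not call it. The Cyber-T type test gave it q = 0.00933 and called 162 higher (0.624%), and limma with an intensity trend gave it q = 0.0281 and called 90 higher (0.347%). With single pairs left out the difference was between 0.57 and 0.66, and the call was lost in 4 of 6 cases. In IBMT the q was 0.195 without pair 1, 0.0961 without pair 2 and 0.00142 without pair 3. Without pair 3 IBMT took the variance wholly from the level and treated it as known, so that this last q cannot be set beside the others. The SE there was 0.130, against 0.0734 in IBMT with all pairs. In the Cyber-T type test it was 0.00107 without pair 1, 0.0530 without pair 2 and 0.0946 without pair 3.

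*Csf1* was also among the 73 probe sets (0.281%) that were higher by over 0.5 in each pair before any allowance for the median of its level group in pair 1 (0.095), the other members having no pair difference over 0.39. In pair 1 the highest difference among the other 6 members was 0.22 in *Il6*, in pair 2 it was 0.39 in *Lif* and in pair 3 it was 0.14 in *Il6*. The difference of *Csf1* exceeded these in all 3 pairs.

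**Figure D2:**
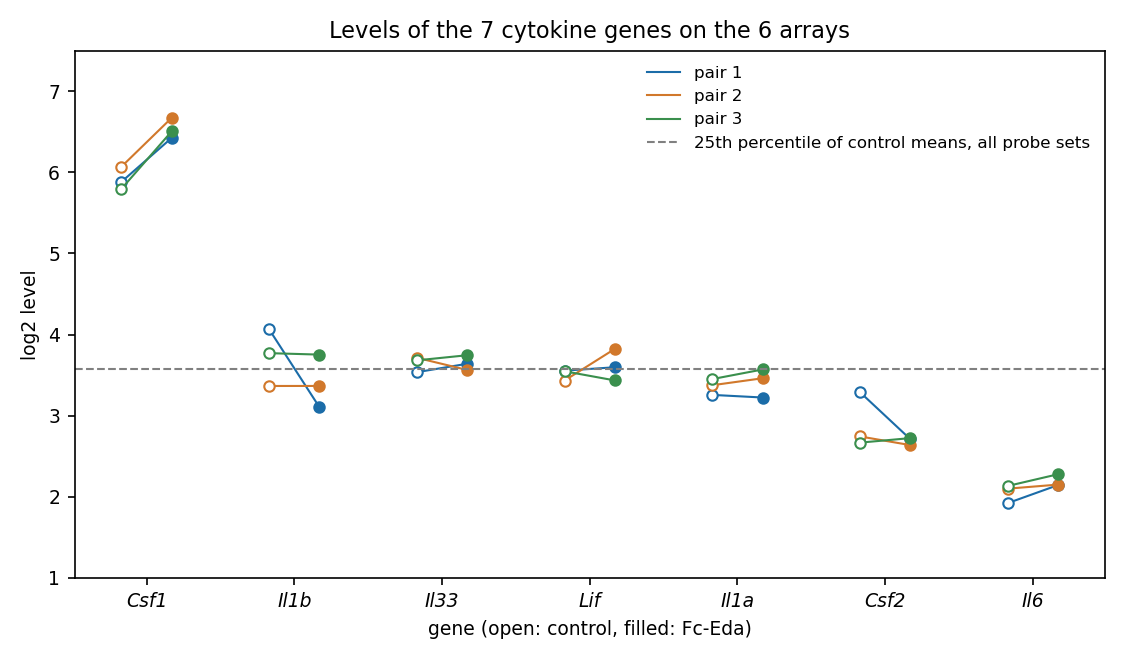
Log2 level of each gene on the 6 arrays, with open points for control, filled points for Fc-Eda, and lines joining the arrays of a pair. All 3 lines of *Csf1* slope upward, from 5.80 to 6.07 in control to 6.43 to 6.67 after Fc-Eda, while the other genes lie around or below the dashed line, the 25th percentile of control means (3.57).

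The genes of the interleukin 1 family did not pass the threshold in any of these tests. *Il1a* encodes a form of interleukin 1 that is active inside and at the surface of the cell. It was at 3.26, 3.38 and 3.45 in control and at 3.22, 3.46 and 3.57 after Fc-Eda treatment, so that the groups overlapped. The difference was -0.03, 0.09 and 0.12 in the 3 pairs and 0.06 on average (SE 0.083, q = 0.781 in limma). The mean was 0.10 without pair 1, 0.043 without pair 2 and 0.027 without pair 3, and 0.13 after quantile normalization or cyclic loess.

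*Il1b* encodes the secreted form of interleukin 1, which is cut from a precursor by the inflammasome. Its control values were 4.06, 3.37 and 3.77, and its values after Fc-Eda treatment were 3.10, 3.37 and 3.75. In pairs 2 and 3 treated and control pools were alike, with differences of 0.0003 and -0.02, and in pair 1 the difference was -0.96. The mean of -0.33 (SE 0.21, q = 0.751 in limma) rests on pair 1, since it was -0.0089 without this pair. In control 1 *Il1b* exceeded the mean of the other controls by 0.50, where the median probe set of its level exceeded it by 0.26.

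*Il33* encodes a cytokine that is stored in the nucleus of epithelial and endothelial cells and released when they are damaged. It was at 3.54, 3.71 and 3.68 in control and at 3.64, 3.56 and 3.75 after Fc-Eda treatment. The difference was 0.10, -0.15 and 0.06, with a mean of 0.0056 (SE 0.092, q = 0.849 in limma), the smallest of the 7. Its direction reversed when pair 1 or pair 3 was left out.

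*Il6* and *Lif* act through receptors that share the signalling chain gp130. *Il6* was at 1.92, 2.10 and 2.13 in control and at 2.14, 2.15 and 2.28 after Fc-Eda treatment. The lowest treated value was thus just above the highest control value, as it was for 3.98% of all probe sets. The difference was 0.22, 0.05 and 0.14 in the 3 pairs. *Il6* and *Csf1* were the 2 members that were higher in each pair, as were 13.2% of all probe sets. The mean of 0.14 (SE 0.084, q = 0.751 in limma) had a 95% interval from -0.08 to 0.35, which includes 0, and the signal stayed among the lowest 5.30% of the array after treatment.

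*Lif*, known for its part in stem cell maintenance and in implantation, was at 3.56, 3.43 and 3.55 in control and at 3.60, 3.82 and 3.43 after Fc-Eda treatment. The highest treated value came from pair 2, and in pair 3 the treated pool was the lower one. The difference was 0.04, 0.39 and -0.11, with a mean of 0.11 (SE 0.12, q = 0.764 in limma), and it was -0.036 when pair 2 was left out.

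*Csf2* encodes the growth factor of granulocytes and macrophages, a cytokine of activated lymphocytes and epithelia. It was at 3.29, 2.74 and 2.67 in control and at 2.71, 2.64 and 2.72 after Fc-Eda treatment. Control 1 was the one high value, 0.58 above the mean of the other controls, where the median probe set of its level was 0.23 above it. The difference was -0.58, -0.11 and 0.06, with a mean of -0.21 (SE 0.14, q = 0.751 in limma), and it was -0.025 without pair 1. *Csf2* thus did not share the direction of *Csf1* in pairs 1 and 2.

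**Figure D3:**
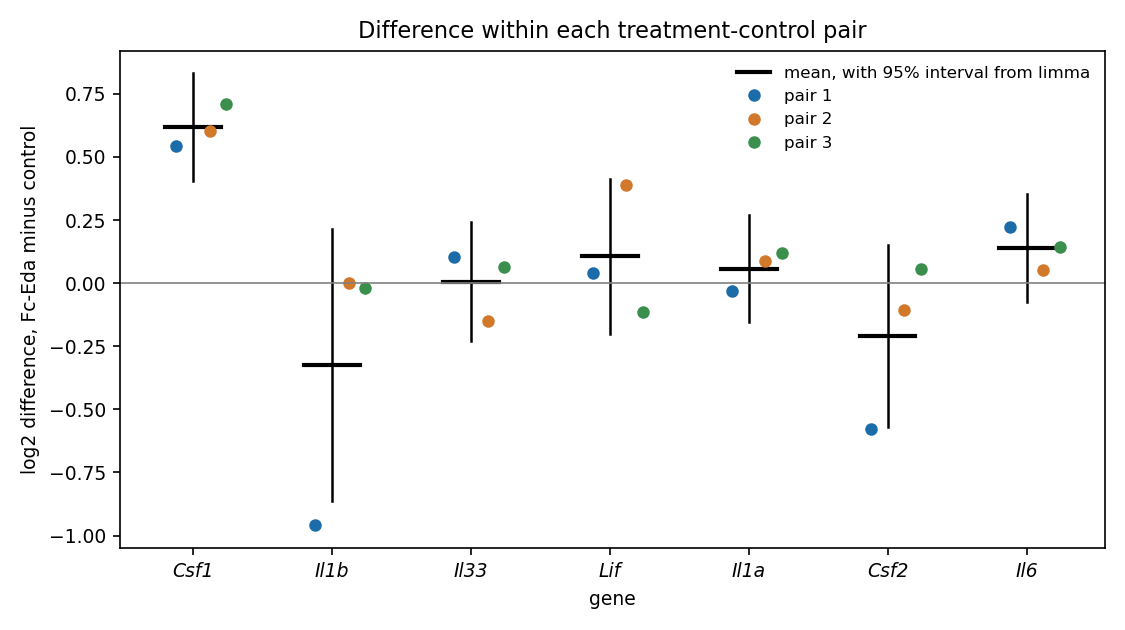
Log2 difference between Fc-Eda and control for each gene in the 3 pairs (points), with the mean (thick bar) and its 95% interval from limma (thin line). The interval of *Csf1* (0.40 to 0.83) lies above 0, the intervals of the other 6 genes include 0, and the lowest points of *Il1b* (-0.96) and *Csf2* (-0.58) are from pair 1.

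Over the 7 members the median of the mean differences was 0.057, beside -0.024 over all probe sets, with 5 members higher and 2 lower on average. This median is the value of *Il1a*, which was 0.13 after quantile normalization or cyclic loess. The value over all probe sets was not computed after these scalings. For the 6 dim members the 95% intervals of the fold from limma ran from 0.549 to 1.16 in *Il1b*, from 0.674 to 1.11 in *Csf2* and from 0.853 to 1.18 in *Il33*. They ran from 0.898 to 1.21 in *Il1a*, from 0.949 to 1.28 in *Il6* and from 0.869 to 1.33 in *Lif*. The upper ends lay below the fold of 1.53 of *Csf1*, whose own interval begins at 1.32 and overlaps that of *Lif*. These are folds of array signal, and how signal follows transcripts near the floor was not measured. In pair 1, *Il1a*, *Il33*, *Lif* and *Il6* lay above the median difference of their level group (-0.28, and -0.13 for *Il6*) and *Il1b* and *Csf2* below it. In pairs 2 and 3 those medians were between -0.02 and 0.06.

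**Figure D4:**
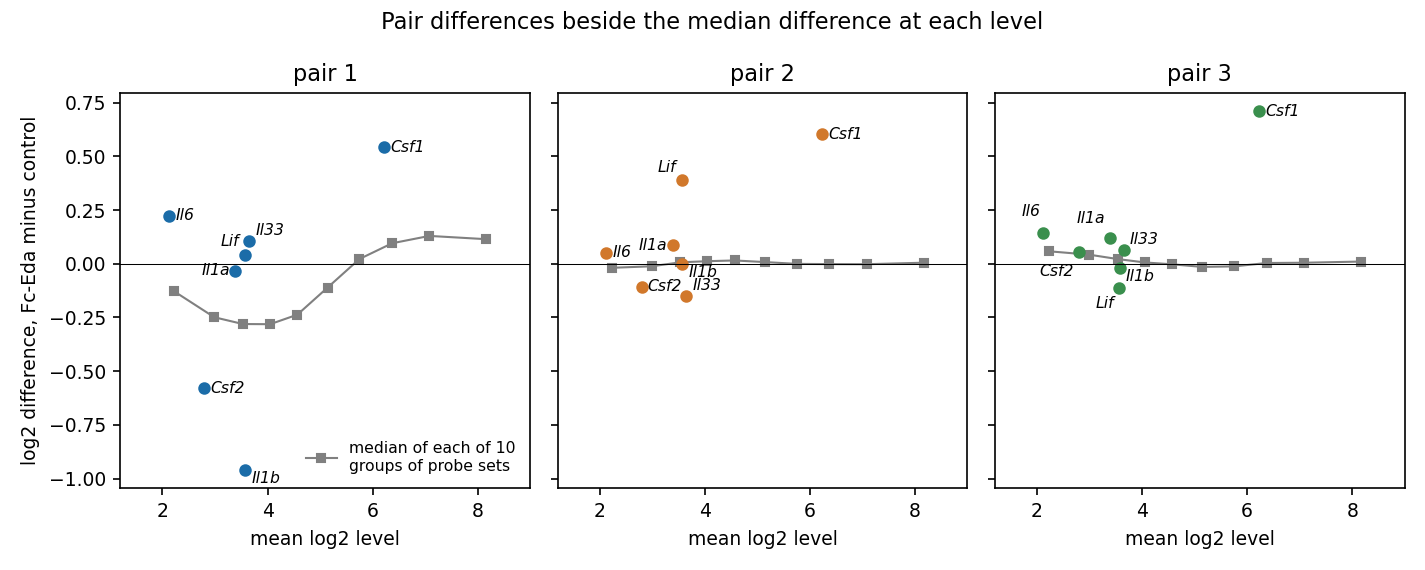
Log2 difference between Fc-Eda and control against mean log2 level in each pair, with the 7 genes as points and the median difference of each of the 10 level groups as grey squares. In pair 1 the grey line runs with rising level from -0.13 through -0.28 to 0.13 in the ninth group and 0.11 in the highest, in pairs 2 and 3 it stays near 0, and *Csf1* lies above it in all 3 pairs.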

How the data were processed

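Mammary buds of 6 pools were measured on 1 array each, and conditions and replicate numbers were taken from the sample titles. The values are on a log2 scale as deposited by the authors, with 25949 rows of probe sets and a column for each array. RMA is named in the submitters' processing notes, with no version, and the genome build is not given in the sources used here. No value was missing. The reference table pairs 0 of the identifiers with a gene. The names of the 7 members come from the list that defines the group, and receptors, other interleukins, NF-κB response genes and cell type markers were not analysed here, nor were probe sets with a pattern like that of *Csf1*. The members and lists were chosen with earlier results of these data known.

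The fit over all probe sets used limma 3.58.1 (R 4.3.3), with terms for treatment and replicate number, following the paired tests of the study's methods, and p-values were turned into Storey q-values with a threshold of 0.05. The numbers pair the arrays, because buds of the same embryos were divided between conditions. The deviations within a pair correlated with r = 0.079, 0.29 and 0.29. IBMT (loess span 0.75) and a Cyber-T type test (window 101, prior weight 10) were written out and are not the authors' programs. These 2, limma with and without trend and the t-test were run on simulated data with normal noise. The simulation held no shift of a single array, so that it does not cover that of control 1. Alternatives were these tests and a call in at least 1 of 3, limma with trend or without the block, Benjamini-Hochberg adjustment, the plain paired t-test with and without it, probe sets above the median level, quantile normalization, median centring, cyclic loess and leaving out each pair. All members are described, and those near the floor were found by the 25th percentile in place of the olfactory receptor genes planned, which have no names here. Promoter windows are from RefSeq. The number of arrays limits the precision.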

Additional observations from a re-analysis of the deposited data

How the results depend on the processing

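*Csf1* was higher after Fc-Eda treatment under the 15 alternatives of the processing summary, by 0.57 to 0.67 on the log2 scale. Alternatives that change only the test, the block, the adjustment or the probe sets tested keep the mean difference of 0.62, so that their direction was fixed. *Csf1* was past the threshold in 6 of the 15, 1 of which is the plain paired t-test without adjustment. Another, the rule of at least 1 of 3 tests, takes its q from the Cyber-T type test (0.00933). No other member was called where it was tested (in limma above the median level *Csf1* was the 1 member tested), so that the count was 1 with IBMT, with the Cyber-T type test, with limma with trend, by the rule of at least 1 of 3 tests, in limma above the median level and in the plain paired t-test without adjustment, and 0 under the others. Of the settings chosen after seeing the data it was 1 in the Cyber-T type test without pair 1. The count was also 1 in IBMT without pair 3, where the variance was treated as known. It was 0 in the rest, including IBMT after cyclic loess (q = 0.0880). Over all probe sets, limma called 0 with its pairs as a replicate block and 3 with no replicate block. Limma with trend called 96, IBMT called 94, and a call in at least 1 of 3 gave 193, as did Cyber-T, with 91 in limma above the median level, 57 after median centring and 19 in IBMT after cyclic loess. The plain paired t-test called 1498 unadjusted and 1 after Benjamini-Hochberg adjustment, and leaving out a replicate gave 0 to 11. The cause was not tested. Leaving out a replicate moved *Il33* between -0.044 and 0.084, reversed without replicate 1 and at -0.023 without replicate 3, and *Lif* between -0.036, reversed without replicate 2, and 0.22. Quantile normalization, median centring and cyclic loess left 4 members near the floor, and leaving out a control gave 3 to 5. These scalings also moved the differences of the dim members. After cyclic loess they were 0.13 in *Il1a*, 0.17 in *Il6*, 0.088 in *Il33* and 0.19 in *Lif*. They were -0.24 in *Il1b* and -0.15 in *Csf2*. How far dim probe sets lie above background was not measured.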
